A study of Mus musculus with 8 samples.

Results

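Axon guidance genes encode the semaphorins, plexins, Slits, Robos, netrins, UNC5 receptors, ephrins and Eph receptors. A total of 67 protein-coding genes with these names were taken by symbol from the 56748 genes of the deposited count table, 35 for ligands and 32 for receptors. The pattern of names also took in Unc5cl, which is named after UNC5C but is not one of its family of netrin receptors. RNA came from primary fibroblasts grown from the hearts of wild-type C57BL/6J mice aged 1 day. There were 4 untreated libraries and 4 from cultures given transforming growth factor beta 1 (TGF-β1, labelled TGF-β) at 10 ng/mL for 48 h, and all were kept in medium with fetal bovine serum. Replicates were isolated from separate litters according to the series design, and the adherent cells kept after a short plating step are a mixed primary culture, not a clone. TGF-β1 drives fibroblasts toward a matrix-producing, contractile state. The protocol also mentions Mirin, an inhibitor of the MRN complex, but the labels of these 8 libraries do not name it.

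Guidance cues were first described as signals that steer growing axons, and the same ligands and receptors position vessels, septa and nerves in the heart. Semaphorins signal through plexins, and most secreted class 3 semaphorins also need a neuropilin. Slits bind Robo receptors, netrins bind DCC, neogenin and UNC5 receptors, and membrane-anchored ephrins bind Eph receptor tyrosine kinases on the neighbouring cell. All of these receptors act on the actin cytoskeleton and on cell adhesion.

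Libraries held 14340740 to 17176898 counted reads. Untreated replicate 1 stood apart in ribosomal RNA, at 0.0332% of its counts against 1.09% to 2.56% in the other 7 libraries. All 10 cardiac fibroblast markers were detected, with Col1a1 the highest of them at up to 11317 CPM (reads per 1000000 of the scaled library total), and 2 of them were raised and 7 lowered. Markers of other cells moved with the treatment. The summed level of 10 cardiomyocyte markers was 766 to 841 CPM in untreated and 412 to 490 CPM in treated libraries, and 9 of the 10 were lowered. For 10 epicardial and mesothelial markers the sums were 1271 to 1339 CPM and 1035 to 1067 CPM, with 4 lowered and 2 raised. Mural markers summed to 1294 to 1331 CPM and 1528 to 1672 CPM, with 4 of 7 tested raised and 2 lowered. Macrophage marker sums overlapped between groups, at 188 to 229 CPM and 171 to 209 CPM, and so did endothelial sums, at 85.6 to 87.4 CPM and 80.4 to 87.7 CPM. Single endothelial markers did move, with Pecam1 and Cdh5 raised and Egfl7 and Tek lowered. Schwann and glial markers were scarce, with 3 of 10 tested, none called and sums of 4.05 to 5.70 CPM and 3.81 to 4.29 CPM, and the glial receptor gene Gfra3 had no counts. Neuronal markers were scarce too, but their sums did not overlap between groups, at 5.25 to 7.30 CPM and 3.32 to 5.07 CPM. Of 10 only 2 passed the filter, and Gap43, a growth cone protein gene, was lowered (log2 fold change −1.06, adjusted p = 0.000732). The part of these marker shifts in the guidance gene values was not tested.

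Guidance genes moved in both directions. Of the 67, 48 passed the filter on low counts, and 33 of these 48 were called, 15 raised and 18 lowered by TGF-β1 (edgeR's quasi-likelihood test, with p adjusted over 13960 genes and called under 0.05). Over all genes tested, 36% were called, 17.6% raised and 18.5% lowered. Among guidance genes with a mean of at least 10 CPM, 26 of 30 were called, against 42.1% of all genes at that level. Below it 7 of 18 were called, and the share of all genes there was not computed. Of the 48, 9 were called with a change of at least 1.5-fold, against 11.1% of all genes, and Sema3a and Sema6d reached 2-fold. The median size of change was 0.27 on the log2 scale for the 48 and 0.16 for all genes tested. The untreated and treated ranges did not overlap for 31 of the 48, against 33.9% of all genes. The median log2 fold change was −0.14 for the 48 and 0.01 for all genes tested. With library totals in place of the scaling factors the split was 11 raised and 21 lowered. In RNA from whole cultures, fewer cells of a type and less RNA per cell cannot be told apart, here and for each gene below.

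**Figure D1:**
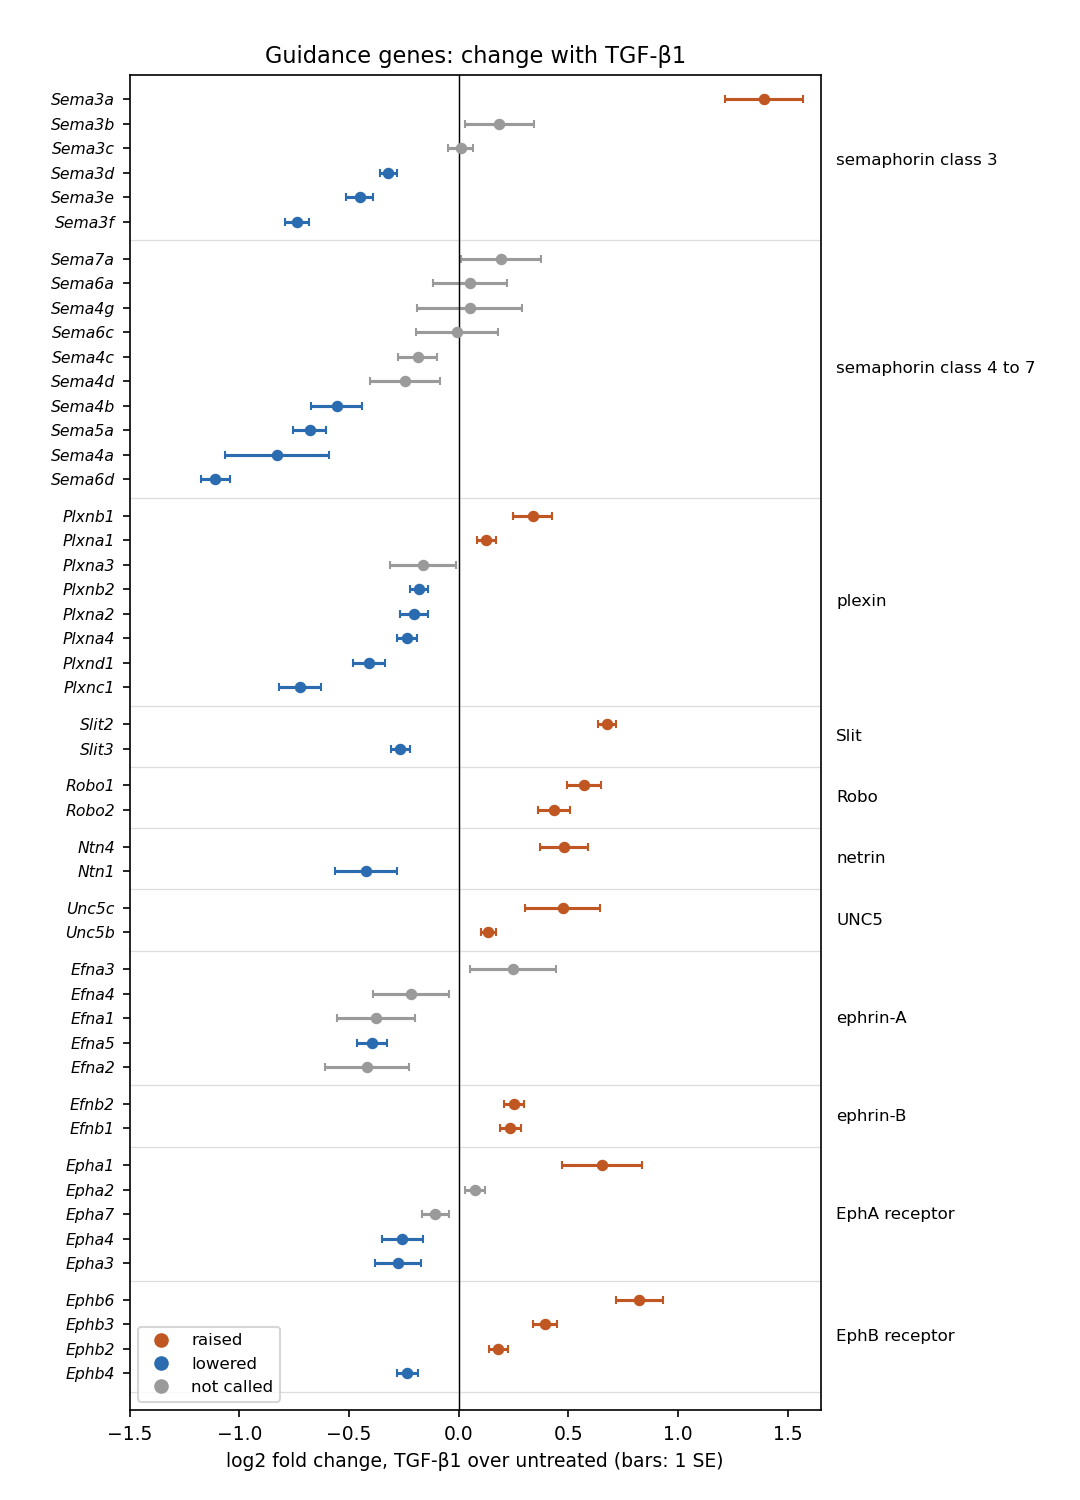
Log2 fold change of the 48 guidance genes that passed the count filter, TGF-β1 over untreated, with bars of 1 standard error, grouped by family and coloured by call. Sema3a lies farthest to the right at 1.39 and Sema6d farthest to the left at −1.11, and all 4 called semaphorins of classes 4 to 7 lie on the left.

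Semaphorins, the ligands of plexins, were lowered in 7 of 16 tested cases and raised in 1. Of all genes tested, 18.5% were lowered and 17.6% raised. Among the secreted class 3 members, Sema3a, a repellent that patterns sympathetic nerves in the heart, was the one that rose. It was read at 3.32, 2.26, 3.77 and 2.39 CPM in untreated replicates 1 to 4 and at 8.25, 6.36, 6.97 and 9.07 CPM in treated replicates 1 to 4. The groups did not overlap, and the log2 fold change was 1.39 ± 0.18 (SE, adjusted p = 1.33e-06 in edgeR). Per length it was below every other tested class 3 gene in both states. It reached 0.543 ± 0.0865 FPKM (the authors' fragments per exon length and library size) in treated libraries (SD, n = 4). By reads it was below Sema3b in untreated libraries but above it in treated ones, at 7.66 ± 1.22 against 5.15 ± 0.770 CPM (SD, n = 4 each). The gene models of Sema3a and Sema3b span 13868 and 4777 exonic bases.

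Sema3f, a ligand that acts through neuropilin-2, went the other way. Its levels were 60.8, 65.3, 57.4 and 59.4 CPM in untreated and 37.0, 36.0, 37.0 and 35.7 CPM in treated libraries. The 4 treated values lay within a narrow band well under the lowest untreated one (log2 fold change −0.74 ± 0.05, SE, adjusted p = 2.43e-10 in edgeR). Sema3d, expressed in the epicardium and known for guiding the pulmonary veins, was the most abundant semaphorin per length. It was read at 335, 327, 332 and 339.7 CPM in untreated and 267, 253, 265 and 283 CPM in treated libraries, with no overlap (−0.32 ± 0.04, adjusted p = 4.96e-07 in edgeR). The epicardial and mesothelial marker sums given above were also lower in treated libraries. Of these markers Upk3b, Lrrn4, Krt19 and Bnc1 were lowered, Krt8 and Krt18 raised, and Wt1, Msln, Upk1b and Aldh1a2 not called. Their part in the fall of Sema3d was not tested.

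Sema3e, which binds plexin-D1 without a neuropilin, went from 54.4 ± 1.18 to 39.8 ± 3.69 CPM (SD, n = 4 each), or −0.45 ± 0.06 on the log2 scale. Sema3c, needed for septation of the outflow tract, was at 5.35 ± 0.187 FPKM in untreated and 5.38 ± 0.236 FPKM in treated libraries (SD, n = 4 each), a log2 fold change of 0.01 ± 0.06 (SE, adjusted p = 0.927 in edgeR). Sema3b was not called either, at 0.19 ± 0.16. Summed over class 3, the level per length was 62.0 ± 0.615 FPKM in untreated and 48.7 ± 1.66 FPKM in treated libraries (SD, n = 4 each), and Sema3d supplied 61.5% and 62.7% of it.

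The largest fall of any guidance gene was in Sema6d, a transmembrane semaphorin that binds plexin-A1 and acts in the developing heart. It was read at 51.4, 48.7, 54.7 and 52.4 CPM in untreated and at 26.2, 24.3, 21.0 and 24.3 CPM in treated libraries. The treated level was below the lowest untreated one in all 4 libraries, with a log2 fold change of −1.11 ± 0.07 (SE, adjusted p = 6.63e-12 in edgeR). Before treatment Sema6d led classes 4 to 7 per length, with 31.8% of their summed FPKM. In treated libraries it held 20.8% and stood at 2.23 ± 0.203 FPKM, below Sema4c at 2.87 ± 0.214 FPKM (SD, n = 4 each). By reads Sema6d was still the higher of the pair there, at 24.0 ± 2.16 against 13.4 ± 1.02 CPM (SD, n = 4 each).

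Sema5a, a semaphorin with thrombospondin repeats, had 31.5, 35.0, 31.1 and 36.4 CPM in untreated libraries and 22.8, 18.9, 20.4 and 21.7 CPM in treated ones. This separation gave a log2 fold change of −0.68 ± 0.07 (SE, adjusted p = 1.6e-07 in edgeR). Sema4a, a transmembrane ligand that also acts in immune cells, was scarce, at 3.39, 2.32, 2.22 and 2.80 CPM against 1.34, 1.38, 1.69 and 1.61 CPM. The groups still did not overlap (−0.83 ± 0.24, adjusted p = 0.00838 in edgeR). Sema4b was lowered from 9.77 ± 0.711 to 6.65 ± 0.561 CPM (SD, n = 4 each), or −0.56 ± 0.12.

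No member of classes 4 to 7 was raised, and 6 of the 10 tested were not called. These were Sema4c, Sema4d, Sema4g, Sema6a, Sema6c and Sema7a, with log2 fold changes from −0.24 to 0.19. Sema7a, the membrane-anchored ligand of plexin-C1 and of β1 integrins, had a log2 fold change of 0.19 ± 0.18 (SE, adjusted p = 0.445 in edgeR). The summed level of classes 4 to 7 was 15.2 ± 0.268 FPKM in untreated and 10.8 ± 0.548 FPKM in treated libraries (SD, n = 4 each).

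**Figure D2:**
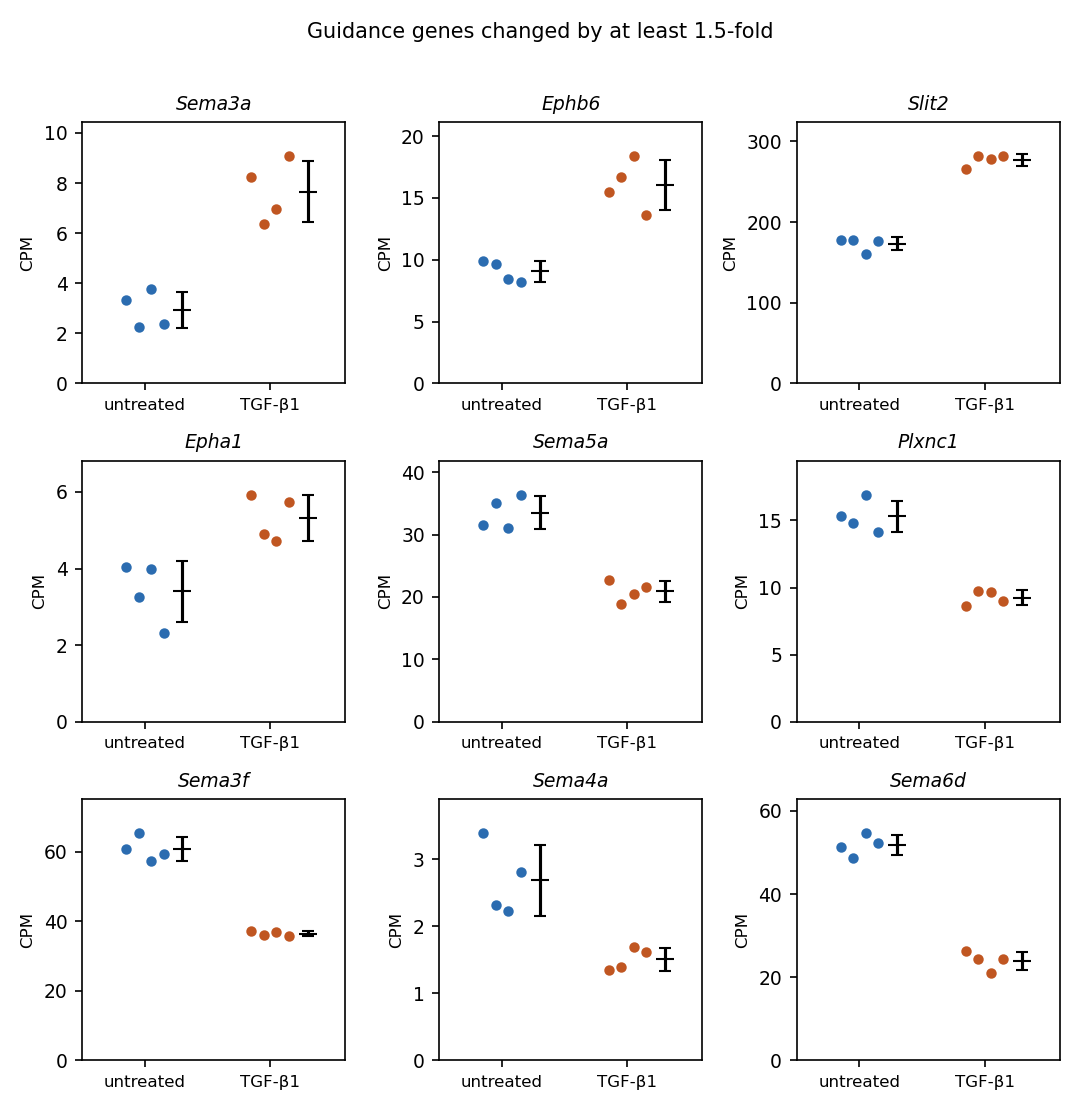
Normalised counts (CPM, from 0) of the 9 guidance genes called with a change of at least 1.5-fold, 1 point per library, with the mean and SD of each group beside the points. In all 9 the treated points lie wholly above or wholly below the untreated ones, and Sema3a, Epha1 and Sema4a stay under 10 CPM.

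Plexins, the semaphorin receptors, were called in 7 of 8 tested cases, 2 raised and 5 lowered. The share called was 36% for all genes and 42.1% for those with a mean of at least 10 CPM. Plxnb2 was the most abundant of them per length, with 648, 627, 593 and 594 CPM in untreated and 557, 564, 543 and 508 CPM in treated libraries. Every treated value was below every untreated one, but the size was modest (−0.18 ± 0.04, adjusted p = 0.00106 in edgeR). It supplied 59.9% of the summed plexin FPKM before and 57.1% after treatment.

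Plxna1, a receptor of class 3 and class 6 semaphorins, was the second in level, at 304, 287, 271 and 279 CPM in untreated and 323, 321, 313 and 289 CPM in treated libraries. The groups overlapped, and the call was weak (0.13 ± 0.04, adjusted p = 0.0255 in edgeR). It was lost in 8 of 18 other settings, among them library totals and the omission of untreated replicate 3 or 4 or of treated replicate 1, 2 or 3. Plxnb1, a receptor of Sema4d, rose by 0.34 ± 0.09.

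The largest plexin change was in Plxnc1, the receptor of Sema7a. Its levels were 15.3, 14.8, 16.9 and 14.1 CPM in untreated and 8.61, 9.75, 9.64 and 9.01 CPM in treated libraries. The groups were far apart relative to their spread, with a log2 fold change of −0.72 ± 0.10 (SE, adjusted p = 2.78e-06 in edgeR). Plxnd1, the receptor of Sema3e and a gene of endothelial cells, changed by −0.41 ± 0.07, in the same direction as its ligand. Plxna4 and Plxna2, which pair with neuropilins, changed by −0.24 ± 0.04 and −0.20 ± 0.06, and Plxna3 was not called (−0.16 ± 0.15). The Plxna2 call was lost with limma on FPKM and without treated replicate 4, and 16.8% of its exonic bases lie under exons on the opposite strand. The endothelial marker sums overlapped between the groups, with 2 of 9 tested markers raised and 2 lowered. The part of endothelial cells in the Plxnd1 value was not tested.

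The neuropilin co-receptors of class 3 semaphorins were both raised slightly. Nrp2 went from 134 ± 5.70 to 156 ± 5.22 CPM (SD, n = 4 each), which is a log2 fold change of 0.22 ± 0.04. Nrp1 went from 59.9 ± 4.80 to 68.0 ± 2.56 CPM (0.18 ± 0.06, SE, adjusted p = 0.0113 in edgeR), and its call was lost with library totals. Of the 7 tested genes in a list of 9 semaphorin co-receptors, these 2 rose and 1 fell. The one that fell was Met, the hepatocyte growth factor receptor that associates with B plexins, with 17.0 ± 0.630 CPM in untreated and 7.27 ± 0.981 CPM in treated libraries (SD, n = 4 each), or −1.22 ± 0.10.

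Slit ligands moved in opposite directions. Slit2 was read at 178, 177, 161 and 177 CPM in untreated and at 266, 282, 279 and 281 CPM in treated libraries. The lowest treated value exceeded the highest untreated one by a wide margin, and the log2 fold change was 0.68 ± 0.04 (SE, adjusted p = 7.22e-12 in edgeR). Slit3 was read at 141, 137, 132 and 131 CPM in untreated and 115, 113, 117 and 106 CPM in treated libraries. It was lower in every treated library (−0.27 ± 0.04, adjusted p = 3.1e-05 in edgeR). Slit1 stayed at or under 0.418 CPM and was not tested.

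By reads, Slit2 made up 55.0% to 57.4% of the Slit2 and Slit3 total in untreated libraries and 69.9% to 72.7% in treated ones. Per length the order was different, because the deposited gene model of Slit2 spans 25433 exonic bases and that of Slit3 6067. On the FPKM scale Slit3 was the higher of the pair in all 8 libraries, with a ratio of Slit2 to Slit3 of 0.292 to 0.322 before and 0.553 to 0.636 after treatment. Lengths that include exons not used in these cells would lower the FPKM of a gene, and which transcripts were present cannot be read from gene counts.

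Robo receptors, which bind Slits, were raised where they could be tested. Robo1 had 19.5, 17.1, 16.9 and 16.5 CPM in untreated and 28.0, 25.2, 25.8 and 24.8 CPM in treated libraries. Robo2 had 33.5, 33.0, 26.9 and 28.0 CPM in untreated and 39.1, 44.2, 40.7 and 39.5 CPM in treated libraries. Neither receptor overlapped between groups, and the log2 fold changes were 0.57 ± 0.08 for Robo1 and 0.43 ± 0.07 for Robo2 (SE, adjusted p = 2.81e-06 and 4.93e-05 in edgeR). Robo4, the endothelial member, and Robo3 stayed at or under 1.06 CPM and 0.775 CPM and did not pass the filter.

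**Figure D3:**
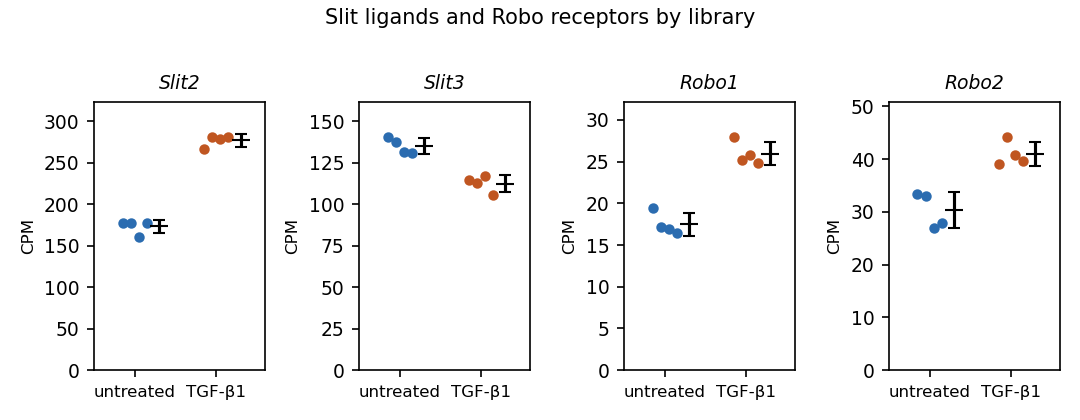
Normalised counts (CPM, from 0) of Slit2, Slit3, Robo1 and Robo2, 1 point per library, with group mean and SD. Slit2, Robo1 and Robo2 are higher in all 4 treated libraries and Slit3 is lower in all 4.

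Upstream sequence is shown for the raised pair Slit2 and Robo1, for Slit3 as the Slit that fell, and for Sema3a as the most raised guidance gene. Each window covers the 250 bases before the start site in the RefSeq table for GRCm38.p6, on the plus strand. The windows are chr5:47982905-47983154 for Slit2, chr11:35121206-35121455 for Slit3, chr16:72662899-72663148 for Robo1 and chr5:13396534-13396783 for Sema3a. Capitals mark matches on either strand to CAGACA, the box bound by SMAD proteins, to TGANTCA, the AP-1 motif, or to GGAATG, the TEAD motif.
Slit2: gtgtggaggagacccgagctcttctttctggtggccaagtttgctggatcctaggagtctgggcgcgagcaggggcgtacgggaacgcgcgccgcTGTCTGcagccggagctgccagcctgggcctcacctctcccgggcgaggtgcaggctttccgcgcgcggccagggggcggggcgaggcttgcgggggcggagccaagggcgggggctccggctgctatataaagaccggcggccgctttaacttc
Slit3: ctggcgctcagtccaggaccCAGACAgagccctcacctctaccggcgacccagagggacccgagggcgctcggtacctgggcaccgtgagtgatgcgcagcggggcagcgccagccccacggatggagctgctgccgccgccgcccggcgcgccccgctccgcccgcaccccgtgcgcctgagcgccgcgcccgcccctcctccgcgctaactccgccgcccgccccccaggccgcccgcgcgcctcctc
Robo1: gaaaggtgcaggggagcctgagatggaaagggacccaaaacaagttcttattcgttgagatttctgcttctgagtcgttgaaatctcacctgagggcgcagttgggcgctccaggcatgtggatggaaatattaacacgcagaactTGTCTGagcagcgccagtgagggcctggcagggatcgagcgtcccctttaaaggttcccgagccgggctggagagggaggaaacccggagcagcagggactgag
Sema3a: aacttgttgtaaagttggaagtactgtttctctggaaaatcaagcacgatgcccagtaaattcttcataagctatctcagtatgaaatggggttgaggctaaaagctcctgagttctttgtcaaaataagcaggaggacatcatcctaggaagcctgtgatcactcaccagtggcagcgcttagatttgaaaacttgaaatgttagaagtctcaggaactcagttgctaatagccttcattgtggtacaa

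Slit2, Slit3 and Robo1 each held 1 match to CAGACA, on the reverse strand in Slit2 and Robo1, and Sema3a held no match to the 3 motifs. The Slit that rose and the Slit that fell thus both carried the letters. Of the 48 tested guidance genes, 42 had an entry, with 57 windows in all, because 11 genes had more than 1 start. CAGACA was in 13 of the 57 windows (22.8%), against 17.1% of 32851 windows of the same length over all genes. It was found for 4 of 14 raised, 5 of 15 lowered and 3 of 13 uncalled genes. TGANTCA was in 3.51% of the guidance windows and 6.75% of all windows, and GGAATG in 12.3% and 12.6%. A match describes letters only, and which start site these cells used is not known from gene counts. The windows and the counted gene models are on different mouse assemblies. Whether a window lies before the outermost start of its gene model or at a start inside it was not checked.

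Netrins and their receptors were led by a single gene. Unc5b, a netrin receptor that also acts in vessel guidance, was the most abundant guidance gene per length, at 168 ± 3.28 FPKM in untreated and 184 ± 5.80 FPKM in treated libraries (SD, n = 4 each). It supplied 99.8% of the summed FPKM of its family in both groups. In counts it was at 1093, 1043, 1075 and 1057 CPM in untreated and 1197, 1181, 1187 and 1119 CPM in treated libraries. The groups did not overlap, although the rise was small (0.13 ± 0.03, adjusted p = 0.0031 in edgeR). With library totals the log2 fold change was 0.05 and the adjusted p 0.273, and over 18 other settings the adjusted p ran from 0.000128 to 0.273.

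Summed endothelial markers were at most 87.7 CPM in any library. Those sums overlapped between groups, with Pecam1 and Cdh5 raised and Egfl7 and Tek lowered. The part of endothelial cells in the Unc5b values was not tested. Unc5c rose from 3.47 ± 0.538 to 4.84 ± 0.648 CPM (SD, n = 4 each; log2 fold change 0.47 ± 0.17, SE, adjusted p = 0.0362 in edgeR), but the call was lost in 9 of 18 other settings, including the omission of untreated replicate 1 or 2 or treated replicate 2 or 3. Unc5a and Unc5d stayed under 1 CPM in all libraries.

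The netrin ligands were scarce and opposed. Ntn4, a netrin that binds laminin in basement membranes, was at 7.78 ± 0.595 CPM before and 10.9 ± 0.726 CPM after treatment (SD, n = 4 each), a rise of 0.48 ± 0.11 (SE, adjusted p = 0.00133 in edgeR). Ntn1, the classical ligand of DCC and UNC5, fell from 6.10 ± 0.599 to 4.54 ± 0.375 CPM (−0.42 ± 0.14, SE, adjusted p = 0.0233 in edgeR). The Ntn1 call was lost without untreated replicate 1 (adjusted p = 0.0824), without treated replicate 1 and with no count filter, over a range of 0.00866 to 0.0824. Of the other netrin receptors, Neo1, encoding neogenin, was abundant, at 246 ± 10.4 CPM in untreated and 277 ± 6.07 CPM in treated libraries (SD, n = 4 each; 0.17 ± 0.04), with the call lost under library totals. Dcc was near the limit of the filter at 1.16 ± 0.356 and 1.03 ± 0.245 CPM and was not called (−0.19 ± 0.32).

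Ephrins and Eph receptors are grouped by anchor and affinity, the A ephrins being held by a lipid anchor and the B ephrins crossing the membrane. The B side rose in 5 of 6 tested genes, against 17.6% of all genes tested. Efnb1 went from 71.4 ± 2.76 to 84.2 ± 4.40 CPM and Efnb2, the arterial ligand, from 68.5 ± 2.81 to 81.6 ± 3.69 CPM (SD, n = 4 each). Their log2 fold changes were 0.24 ± 0.05 and 0.25 ± 0.05 (SE, adjusted p = 0.000454 and 0.000198 in edgeR), and neither overlapped between groups. By library, Efnb2 was read at 72.2, 69.1, 66.6 and 66.1 CPM in untreated and 85.1, 84.3, 77.6 and 79.3 CPM in treated replicates.

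Among the B receptors, Ephb6, whose kinase domain is inactive, changed most. It was read at 9.89, 9.68, 8.42 and 8.23 CPM in untreated and 15.5, 16.7, 18.4 and 13.6 CPM in treated libraries. All treated values were above all untreated ones (0.82 ± 0.11, adjusted p = 2.18e-06 in edgeR). Of its exonic bases in GENCODE M39, 14.7% lie under exons on the opposite strand, with Trpv6 the largest contributor. Trpv6 was itself at 0.151 CPM in untreated and 0.524 CPM in treated libraries. The part of Trpv6 in the Ephb6 value was not tested.

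Ephb3 rose by 0.39 ± 0.06 and Ephb2 by 0.18 ± 0.04, both receptors of B ephrins. The Ephb2 call was lost with library totals. Ephb4, the venous receptor of ephrin-B2, was the exception. It was read at 71.2, 75.8, 73.8 and 71.8 CPM in untreated and 66.5, 63.5, 59.0 and 59.8 CPM in treated libraries. Every treated value was the lower (log2 fold change −0.23 ± 0.05, SE, adjusted p = 0.000608 in edgeR). Per length Ephb4 was the most abundant B receptor before treatment, with 46.5% of their summed FPKM, and had 36.1% after it. The receptor and its preferred ligand Efnb2 thus moved in opposite directions in the same libraries.

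On the A side, 1 of 5 tested ephrins and 3 of 5 tested receptors were called, against 36% of all genes. Efna5 was the only ephrin-A of 5 tested that was called, falling from 38.2 ± 3.27 to 29.0 ± 1.16 CPM (SD, n = 4 each; log2 fold change −0.40 ± 0.07, SE, adjusted p = 5.7e-05 in edgeR). Efna1, Efna2, Efna3 and Efna4 stayed at or under 6.68 CPM, with log2 fold changes of −0.38, −0.42, 0.25 and −0.22 that did not pass the test.

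Epha2, the dominant A receptor with 79.1% of their summed FPKM before and 80.7% after treatment, was read at 141, 137, 140.1 and 143 CPM in untreated and 154, 156, 147 and 134 CPM in treated libraries. The groups overlapped, through treated replicate 4, and the gene was not called (0.08 ± 0.04, SE, adjusted p = 0.204 in edgeR). Without treated replicate 4 it was called (0.12, adjusted p = 0.0249, over a range of 0.0249 to 0.945). Epha7 was not called (−0.11 ± 0.06). Epha3 and Epha4 were lowered by little (−0.28 ± 0.10 and −0.26 ± 0.09, SE, adjusted p = 0.0421 and 0.0342 in edgeR), and each call was lost in 8 of 18 other settings. For Epha3 these included the omission of untreated replicate 3 or 4 or of treated replicate 1, 2 or 4, and for Epha4 of untreated replicate 2 or 4 or of treated replicate 1 or 2.

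Epha1 was called raised, at 4.05, 3.25, 3.98 and 2.33 CPM in untreated and 5.92, 4.91, 4.71 and 5.73 CPM in treated libraries. The groups did not overlap, and the log2 fold change was 0.65 ± 0.18 (SE, adjusted p = 0.00675 in edgeR). This value is uncertain. Exons on the other strand, with Zyx the largest contributor, cover 36.9% of the exonic bases of Epha1. In addition, no source used here says whether reads were assigned by strand. Zyx, encoding the focal adhesion protein zyxin, was far higher, at 341 ± 18.4 CPM in untreated and 407 ± 14.1 CPM in treated libraries (SD, n = 4 each; log2 fold change 0.25 ± 0.04). Its part in the Epha1 value was not tested.

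**Figure D4:**
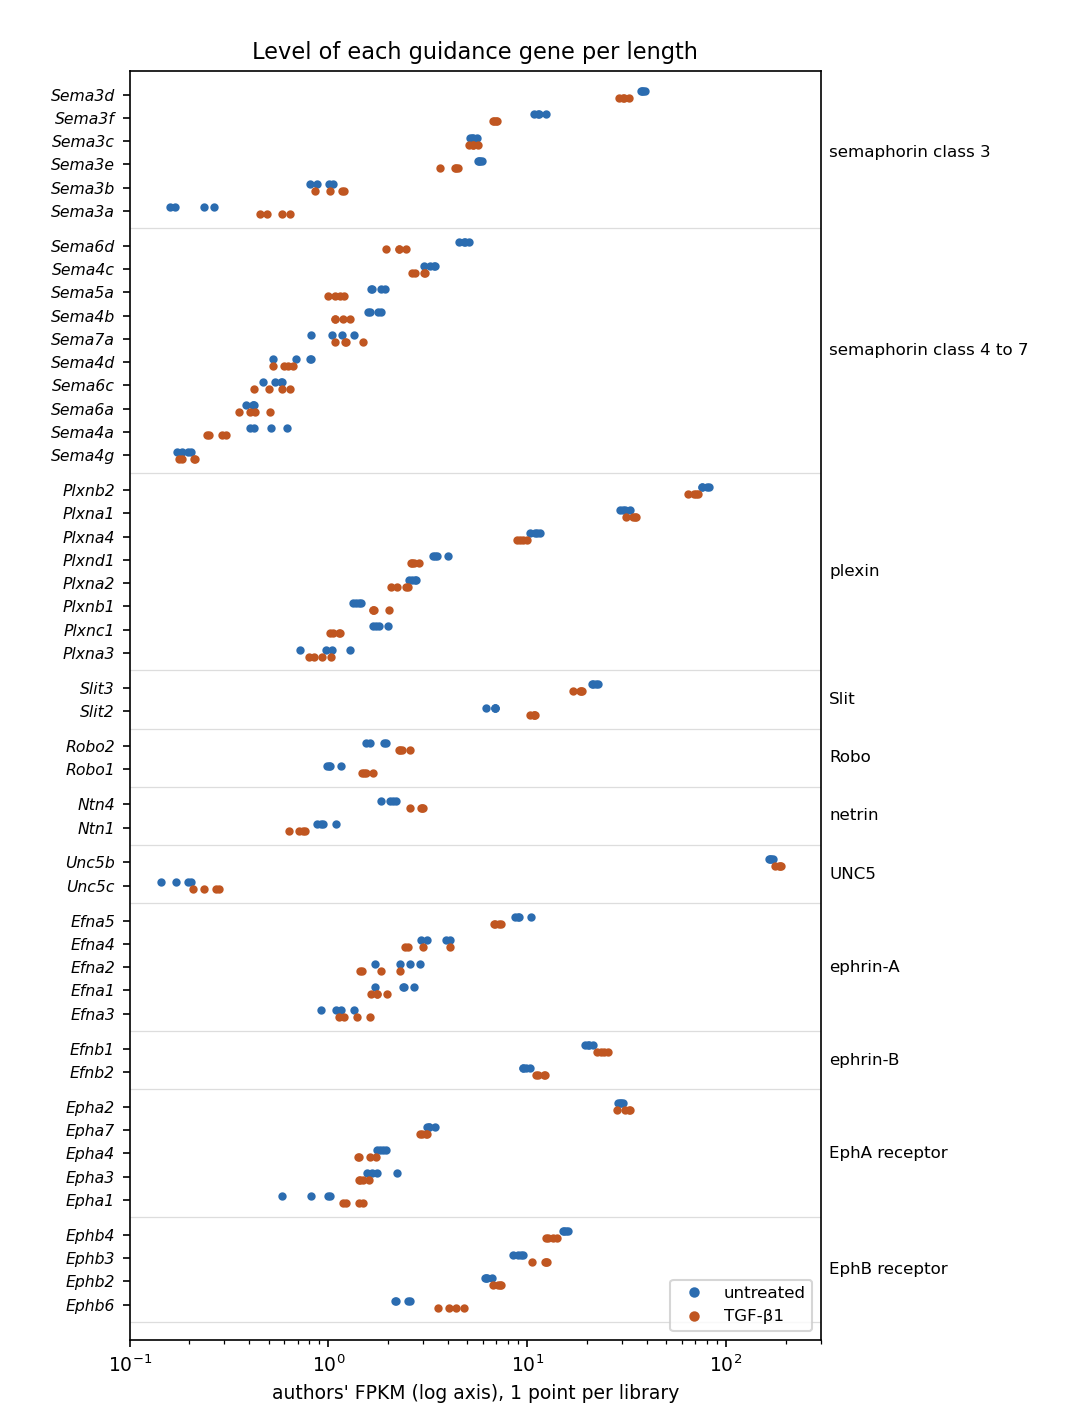
Level per length (authors' FPKM, log axis) of the 48 tested guidance genes, 1 point per library, grouped by family and ordered by mean level within it. Unc5b stands highest at a mean of 168 FPKM in untreated libraries, followed by Plxnb2, and the shift with treatment is small beside the spread between genes.

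The 5 guidance genes with the highest FPKM were Unc5b, Plxnb2, Sema3d, Plxna1 and Epha2. In untreated libraries they stood at 168 ± 3.28, 78.4 ± 3.38, 38.2 ± 0.641, 31.0 ± 1.55 and 29.5 ± 0.589 FPKM (SD, n = 4 each). The levels of Plxna1 and Epha2 lay about 1 SD of Plxna1 apart there, whereas the first 3 were separated from their neighbours by more than their spread. The 19 genes that did not pass the filter stayed at or under 1.33 CPM in every library, and Ntn3 was the highest of them. They included Sema3g and Robo4, genes of endothelial cells, the ligand genes Sema4f, Sema5b, Sema6b, Efnb3, Slit1 and Ntn5, and the receptor genes Ephb1, Epha5, Epha6, Epha8 and Plxnb3. Epha10 had no counts in any library, which allows up to 0.212 CPM in one library by 3 counts (counting error only). Unc5cl had a count in only 1 library.

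Downstream partners were taken from lists of 94 genes, and 43 of the 81 tested were called, 22 raised and 21 lowered, or 53.1% against 36% of all genes and 42.1% of those with a mean of at least 10 CPM. By list the share called was 42.9% for semaphorin co-receptors, 64% for plexin effectors, 44.4% for Slit and Robo partners, 63.6% for netrin partners and 45% for Eph effectors. Of 25 tested plexin effectors, 8 rose and 8 fell. Dpysl3, a collapsin response mediator protein that binds microtubules and actin, went from 225 ± 8.99 to 411 ± 12.9 CPM (SD, n = 4 each), which is a log2 fold change of 0.87 ± 0.04. Rnd1, a small GTPase that binds plexins, fell from 53.4 ± 1.44 to 27.7 ± 2.04 CPM (−0.95 ± 0.06). Farp1, an exchange factor that binds plexins, rose by 0.42 ± 0.04, and Pip5k1c, a lipid kinase at adhesion sites, changed by −0.27 ± 0.04. Exons on the opposite strand, with Stk24 the largest contributor, cover 14.6% of the exonic bases of Farp1.

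Of 18 tested Slit and Robo partners, 5 rose and 3 fell. Gpc1, a glypican whose heparan sulfate binds Slit, rose by 0.74 ± 0.09, and Srgap1, a GTPase-activating protein that binds Robo, rose by 0.53 ± 0.09. Exons on the opposite strand, with Ankmy1 the largest contributor, cover 16.4% of the exonic bases of Gpc1. Abl2, a kinase in Robo signalling, rose by 0.28 ± 0.05. Vasp, a regulator of actin filament growth, changed by −0.23 ± 0.04. Of its exonic bases, 30.5% lie under exons on the opposite strand, with Opa3 the largest contributor.

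Of 11 tested netrin partners, 3 rose and 4 fell. Mcam, an adhesion molecule described as a netrin receptor, rose by 0.84 ± 0.04, from 209 ± 1.62 to 375 ± 20.9 CPM (SD, n = 4 each). It is also in the mural marker list, so its own rise is part of the higher mural sum in treated libraries. Whether the other mural markers are linked to Mcam was not tested. Of the exonic bases of Mcam, 15.3% lie under exons on the opposite strand. Rgma, a neogenin ligand, changed by −0.79 ± 0.09, Flrt2, a ligand of UNC5 receptors, by −0.34 ± 0.05, and Dapk1, a kinase that acts downstream of UNC5B, by −0.37 ± 0.07.

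Of 20 tested Eph effectors and proteases, 4 rose and 5 fell. Grb10, an adaptor that binds receptor kinases, went from 887 ± 25.0 to 1376 ± 17.6 CPM (SD, n = 4 each), or 0.63 ± 0.03. Kalrn, an exchange factor for Rac, changed by −0.53 ± 0.05 and Inppl1, a lipid phosphatase recruited by EphA2, by −0.31 ± 0.04, the latter with 23.3% of its exonic bases under exons on the opposite strand. Sipa1l1, a Rap regulator, rose by 0.29 ± 0.04. No partner list moved in 1 direction only.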

How the data were processed

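RNA-seq was analysed from 4 untreated and 4 TGF-β1 libraries, assigned by their titles. The deposited counts are whole reads per gene, not normalized by the authors, and CASAVA, HISAT2, featureCounts and Subread are named without versions per the submitters' processing notes. No source used here gives the strand setting. Of the 33 called guidance genes, 5 (Epha1, Plxna2, Ephb6, Ntn4 and Efnb2) had over 10% of exonic bases under exons on the opposite strand. The FPKM values are the authors' own, per the file headers, and are used for levels per length. The notes name GRCm38 and the series design mm39. File coordinates overlapped the same gene in GENCODE M39 (GRCm39) for 99.9% of 21778 coding genes and are read as GRCm39.

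Genes were kept with filterByExpr (minimum count 10, minimum total 15), scaled with TMM and tested with edgeR 4.0.16 (limma 3.58.1, R 4.3.3), group as the only term, two-sided, with Benjamini-Hochberg adjustment over 13960 genes. Calls are adjusted p-values under 0.05. CPM uses the scaled library totals, and each standard error is the log2 fold change divided by √F. The biological coefficient of variation was 6.27%. The test was first run on simulated counts. DESeq2 1.42.0, limma on log2 FPKM (pseudocounts 1 and 0.1), other scalings and filters, the replicate number as a block, and each library left out were tried. Promoter windows leave out the 50 bases after the start.

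Values in every library are given for called genes with at least 1.5-fold change and 1 CPM, for the 5 with the highest FPKM, and for Slit3, Robo1, Robo2, Efnb2 and Ephb4, added after their values were seen. Up to 4 called partners per list with the smallest p are named, with Nrp1, Nrp2, Neo1 and Dcc. Members, lists and rule were chosen with earlier results of these data known.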

Additional observations from a re-analysis of the deposited data

Results flagged for a closer look

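In 5 of the 96 sets of 4 libraries looked at (48 genes in each of 2 groups), 1 library lay apart from the other 3 by more than 0.829 of the group's range. Chance gives about 1 in 20 such sets. Ephb3 was at 71.4 CPM in treated replicate 4 against 83.2 to 84.8 CPM in the other treated libraries, and Ntn4 was at 9.78 CPM there against 11.1 to 11.3 CPM. Plxnb1 was at 19.5 CPM in treated replicate 1 against 16.3 to 16.5 CPM. Sema3e was at 34.3 CPM in treated replicate 1 against 41.0 to 42.3 CPM. Slit2 was at 161 CPM in untreated replicate 3 against 177 to 178 CPM. In all 5 genes the outlying value stayed on its own group's side of the other group.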

How the results depend on the processing

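Of the 33 called guidance genes, 25 were called in the same direction in all 18 alternatives, 11 raised and 14 lowered. The other 8 (Epha3, Epha4, Ephb2, Ntn1, Plxna1, Plxna2, Unc5b and Unc5c) lost the call in at least 1, and Epha2, Epha7, Efna1, Efna2 and Sema4c gained one in at least 1. No call among these 48 genes or the 21 named partners reversed. Plxna2 lost its call with limma on FPKM and without treated replicate 4 (adjusted p = 0.064, over a range of 0.00089 to 0.0921). With library totals, 1301 genes were raised over all genes, against 2451, and 3673 were lowered, against 2579, which is a share raised of 26.2% against 48.7%. The cause was not tested. With library totals the median of all genes moved from 0.01 to −0.07. Leaving out 1 library gave 13 to 16 raised and 15 to 19 lowered guidance genes, and 18 to 23 raised and 19 to 21 lowered partners. DESeq2 gave 15 and 16 guidance genes, and limma on either FPKM scale 13 and 15. With the replicate number as a block 14 were raised and 18 lowered, and of the guidance genes only the Unc5c call was lost. Same-numbered libraries did not deviate together (correlations −0.03 to 0.04), and no untreated library correlated best with its own number. Of the tested guidance genes with a mean under 10 CPM 7 of 18 were called, and of the others 26 of 30. Of all genes with a mean of at least 10 CPM 42.1% were called, and the share under that level was not computed. No alternative varied depth.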

Other observations

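Several guidance genes lie near each other (GRCm39, coordinates as in the files). Of 19 pairs of successive guidance genes less than 5 Mb apart, 6 had both genes called, 2 in the same direction (Robo1 with Robo2, and Ephb6 with Epha1) and 4 in opposite directions (Sema3d with Sema3a, Sema3a with Sema3e, Ntn4 with Plxnc1, and Sema3f with Plxnb1). On chromosome 5, Sema3d (12433352 to 12638915), Sema3a (13175381 to 13652533) and Sema3e (14075290 to 14306703) follow each other on the plus strand, with gaps of 536.5 and 422.8 kb. From the start of the first gene of a pair to the end of the second, these pairs hold 0 and 1 other coding genes. The middle gene, Sema3a, rose, and both of its neighbours fell. On chromosome 9, Sema3b (107474873 to 107486428) and Sema3f (107558699 to 107587674), both on the minus strand, are 72.3 kb apart, and only Sema3f was called. On chromosome 16, Robo1 (72105194 to 72842983, plus strand) and Robo2 (73688727 to 74208713, minus strand) are 845.7 kb apart with no coding gene between them, and both rose. Ephb6 and Epha1, on chromosome 6, are 738.0 kb apart, and both rose. The span from the start of Ephb6 to the end of Epha1 holds 18 other coding genes, counting Zyx, which overlaps Epha1. Efna1, Efna3 and Efna4 lie within 32.8 and 10.4 kb of each other on chromosome 3, and none of the 3 was called. No test was made of these directions.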
